A study of Mus musculus with 72 samples.

Results

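Nr1d1, Nr1d2 and Rora encode nuclear receptors of the liver clock, and their transcripts are described here across mouse livers of both sexes, after circadian misalignment and in controls. The 3 genes were picked by symbol out of the 27846 genes of the count table, with no measured value in the rule. Earlier results of these data were known when the genes were chosen. Livers came from wild-type C57bl6 mice aged 8 to 16 weeks, and each gave 1 poly(A)-selected, strand-specific RNA library. The 4 kinds of mice were misaligned males, control males, misaligned females and control females, each sampled at clock times 00:00, 04:00, 08:00, 12:00, 16:00 and 20:00 with 3 livers a time, which made 24 groups and 72 libraries. All 4 kinds, controls included, lived in 12 h of light and 12 h of dark and ate a diet with 42% of calories from fat from the start of the paradigm. The labels do not describe the misalignment schedule, nor how clock time stood to the light cycle of a misaligned mouse on the day of collection, so every peak time below refers to the stated clock time alone. The title of the series asks whether the sexes respond differently. The submitters call the livers of a group biological replicates without saying that each is a separate animal, so p-values measure the spread between these samples.

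REV-ERB alpha, the product of Nr1d1, and REV-ERB beta, the product of Nr1d2, are heme-binding repressors that recruit the NCoR and HDAC3 complex to ROR response elements. ROR alpha, the product of Rora, activates transcription from the same elements, and Arntl, the gene of the clock activator BMAL1, is the best known shared target. BMAL1 and CLOCK in turn drive Nr1d1 and Nr1d2 through E-boxes, and proteins such as DBP act on D-boxes, which closes the second loop of the clock. In liver the REV-ERBs are known for timing lipid and bile acid metabolism.

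On GRCm38 with GENCODE vM21, Nr1d1 (ENSMUSG00000020889) lies on chromosome 11 from 98767932 to 98775333 on the minus strand, and its longest transcript has 8 exons and 2721 bases. Nr1d2 (ENSMUSG00000021775) lies on chromosome 14 from 18204054 to 18239127 on the minus strand, with 8 exons and 4663 bases. Rora (ENSMUSG00000032238) lies on chromosome 9 from 68653786 to 69388246 on the plus strand, with 11 exons and 10878 bases. The 3′ end of Nr1d1 overlaps the thyroid receptor gene Thra on the opposite strand by 1075 bases. Reads were counted by strand, and the antisense counts of Nr1d1 came to 0.109% of its sense counts.

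The promoters of both REV-ERB genes are shown because the members of this loop act on each other through such windows. RefSeq windows on GRCm38.p6 ran from 250 bases before to 50 bases after the gene start, chr11:98775328-98775627 for Nr1d1 and chr14:18239057-18239356 for Nr1d2, both on the minus strand and printed 5′ to 3′. Capitals mark matches to any of 4 motifs, searched on both strands.
Nr1d1: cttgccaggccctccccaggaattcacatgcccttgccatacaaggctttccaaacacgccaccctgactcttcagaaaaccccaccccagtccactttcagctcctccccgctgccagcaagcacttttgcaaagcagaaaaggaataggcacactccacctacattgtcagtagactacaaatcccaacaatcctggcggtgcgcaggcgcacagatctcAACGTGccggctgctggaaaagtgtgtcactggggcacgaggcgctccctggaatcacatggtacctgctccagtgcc
Nr1d2: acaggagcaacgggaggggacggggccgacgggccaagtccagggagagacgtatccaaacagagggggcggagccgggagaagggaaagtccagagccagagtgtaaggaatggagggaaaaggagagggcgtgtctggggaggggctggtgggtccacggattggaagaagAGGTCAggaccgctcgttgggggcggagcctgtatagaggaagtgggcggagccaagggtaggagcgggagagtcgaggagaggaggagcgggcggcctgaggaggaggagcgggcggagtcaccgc
The Nr1d1 window held 1 match, AACGTG at position -28, which is the reverse complement of the E-box variant CACGTT. The Nr1d2 window held 1 match, the ROR half-site AGGTCA at position -77. Neither the E-box CACGTG nor the D-box TTATGTAA was among the letters of either window, and the Rora window, chr9:68653536-68653835, held none of the 4 motifs. Of 32851 mouse promoters of the same length, 7.15% held CACGTG, 4.68% held CACGTT, 16.3% held AGGTCA and 0.938% held TTATGTAA. Elements outside these windows were not searched.

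A library carried 11551524 to 12529963 gene counts, of which Nr1d1 took 28 to 1950 (median 383), Nr1d2 86 to 1170 (median 562) and Rora 331 to 901 (median 482). All 3 genes passed the filter on low counts, as did 15066 genes in all. Xist and Ddx3y counts went against the sex label of 0 of 72 libraries. The defining hepatocyte markers were high in all libraries: Alb, Ttr, Apoa1, Cps1, Tat and Serpina1a summed to 67002 to 104093 CPM (library counts scaled by TMM) in misaligned males, 68679 to 108602 in control males, 85051 to 134760 in misaligned females and 84911 to 118546 in control females. Of 36 markers of 8 liver cell types, 35 were tested. The rhythm change in males was called for 0 of them by edgeR (4 reached 0.05 before adjustment), 1 by limma-voom and 1 by DESeq2, against 9.23% of all genes by edgeR. The daily mean difference, misaligned minus control, was called by edgeR for 0 of them in either sex. Of all 15066 genes 0 were called in males and 1 in females, so these counts say nothing particular about the markers. Before adjustment 4 of 5 erythroid markers reached 0.05 in females (median -1.01 log2), against 1007 of all 15066 genes. In males 2 of 2 tested neutrophil markers did (median -0.83 log2), against 932. CPM in bulk liver cannot tell fewer cells from less RNA per cell.

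Nr1d1 was the most strongly cycling of the 3 genes, and its rhythm in misaligned males differed from that in control males. In control males it was high from 00:00 to 08:00 and near its floor at 16:00 and 20:00, whereas misaligned males held high values at 16:00. Values are CPM, in the order of replicate numbers 1, 2 and 3. At 00:00 it had 15.1, 19.0 and 18.4 CPM in misaligned males, against 38.1, 26.5 and 67.0 CPM in control males. At 04:00 the livers of misaligned males gave 3.75, 97.5 and 11.1 CPM, against 74.2, 101 and 63.3 CPM in control males. The ranges did not overlap at 00:00, where misaligned males were lower. They overlapped at 04:00, where 1 misaligned liver stood among the controls and the other 2 far under them.

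At 08:00 the livers of misaligned males had 85.3, 65.4 and 61.1 CPM of Nr1d1, against 70.2, 61.8 and 54.2 CPM in control males. At 12:00 the values were 9.74, 98.9 and 65.4 CPM in misaligned males, against 18.7, 19.4 and 15.6 CPM in control males. The 08:00 livers were alike, and at 12:00 a single misaligned liver fell under the controls while the others were several-fold over them. At 16:00 misaligned males had 75.4, 63.5 and 84.3 CPM, against 6.38, 4.15 and 2.79 CPM in control males. At 20:00 they had 62.9, 5.29 and 14.7 CPM, against 3.93, 3.42 and 6.12 CPM in control males. All 3 misaligned livers were over all 3 controls at 16:00, and at 20:00 the ranges overlapped. Ranges that do not overlap were common: 9.76% of the tested genes at 00:00 and 13.3% at 16:00 showed this in males.

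By edgeR's quasi-likelihood test with Benjamini-Hochberg adjustment over all genes, Nr1d1 was higher in misaligned males at 16:00, by 4.05 ± 0.78 on the log2 scale (± SE, n = 3 each, adjusted p = 0.00537), and at 20:00, by 2.63 ± 0.76 (adjusted p = 0.0177). At these clock times 0.431% and 8.31% of the tested genes were called as higher. The 16:00 difference had an adjusted p of 0.0544 without replicate number 1, 0.119 without number 3 and 0.0748 with males fitted alone. The 20:00 difference missed the threshold without any 1 replicate number and was 1.07 without number 1, which holds the 62.9 CPM liver. It also missed the threshold by limma-voom (adjusted p = 0.158) and by edgeR with males fitted alone (adjusted p = 0.0570).

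In females the mean of Nr1d1 was highest at 04:00 under both conditions, and misaligned females were lower at 12:00 and 16:00. At 00:00 Nr1d1 had 42.9, 52.7 and 36.3 CPM in misaligned females, against 37.7, 22.6 and 71.5 CPM in control females. At 04:00 misaligned females had 122, 145 and 112 CPM, against 160, 66.3 and 87.6 CPM in control females. The ranges overlapped at both clock times, and the misaligned group at 04:00 had the highest mean of all 24 groups. At 08:00 the values were 42.0, 66.4 and 24.4 CPM in misaligned females, against 49.5, 87.7 and 119 CPM in control females. At 12:00 they were 16.2, 22.7 and 12.5 CPM in misaligned females, against 28.5, 58.0 and 31.0 CPM in control females. Misaligned females were lower without overlap at 12:00, as were 9.93% of tested genes in either direction.

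At 16:00 Nr1d1 had 4.38, 4.47 and 6.19 CPM in misaligned females, against 7.58, 8.30 and 6.85 CPM in control females. At 20:00 it had 17.7, 2.51 and 31.4 CPM in misaligned females, against 4.61, 3.29 and 5.55 CPM in control females. At 16:00 the misaligned females were again lower without overlap (9.6% of tested genes), and at 20:00 the misaligned livers lay on both sides of the controls. None of the 6 female contrasts of Nr1d1 passed edgeR's test, with adjusted p from 0.953 to 1.00. One of them, 20:00 with a log2 difference of 1.94 ± 0.77 (n = 3 each), had an unadjusted edgeR p of 0.0146, and limma-voom called none of the 6.

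**Figure D1:**
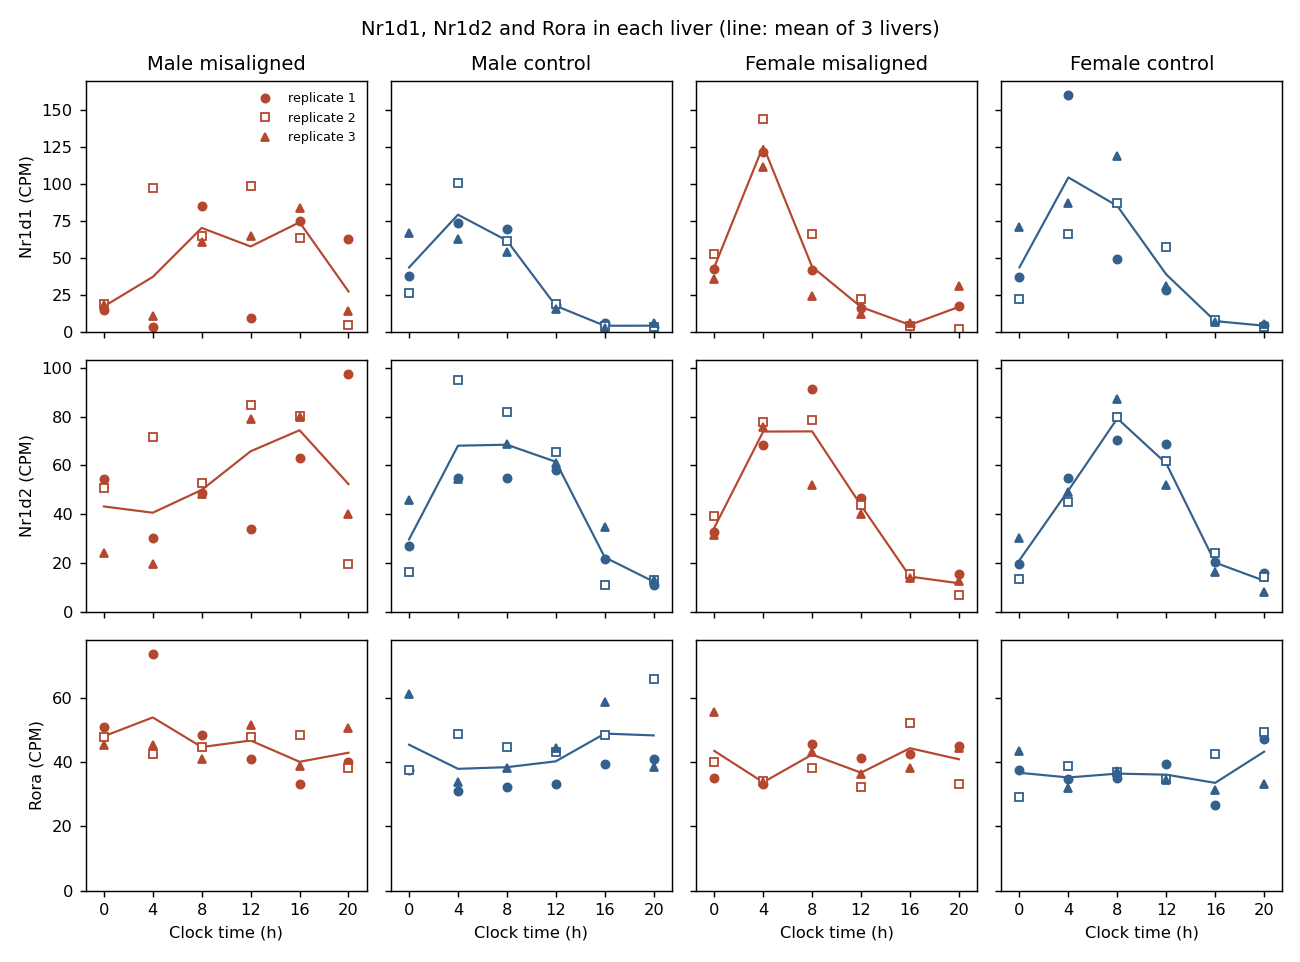
Levels of Nr1d1, Nr1d2 and Rora in CPM against clock time in h, in columns for misaligned males, control males, misaligned females and control females; symbols are single livers by replicate number and lines join the means of 3 livers. Misaligned males at 16:00 lie at 63.5 to 84.3 CPM of Nr1d1, against 2.79 to 6.38 CPM in control males, while in females the Nr1d1 ranges are apart at 12:00 and 16:00 and Rora stays between 26.7 and 73.6 CPM in all 72 livers.

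A cosine with a period of 24 h, fitted to the 18 livers of each kind, gave the size of the rhythm, with the amplitude running from mean to peak in log2. Nr1d1 had an amplitude of 1.10 ± 0.47 (± SE) with a peak at 12.2 ± 1.62 h in misaligned males, against 2.34 ± 0.18 peaking at 5.24 ± 0.289 h in control males. In females the amplitude was 2.08 ± 0.27 with a peak at 4.24 ± 0.50 h after misalignment, against 2.25 ± 0.23 with a peak at 6.09 ± 0.390 h in controls. The cosine held 27.1% of the variance between livers in misaligned males, against 92.1% in control males, and 79.5% in misaligned females, against 86.5% in control females. The fitted ratio of peak to trough came to 4.58 in misaligned males, against 25.5 in control males.

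The rhythm of Nr1d1 was called in control males (edgeR adjusted p = 2.39e-06, with 10.8% of genes called), misaligned females (6.37e-06, 7.69%) and control females (2.05e-06, 12%). In misaligned males its edgeR adjusted p was 0.401, at an unadjusted p of 0.00581. The number of genes called there was 1, or 0.00664%, so the lack of a call was shared by almost all genes. The change of rhythm with misalignment was called in males (edgeR adjusted p = 3.13e-05), a call made for 9.23% of genes, with an amplitude difference, misaligned minus control, of -1.24 ± 0.50 log2 and a peak 6.92 ± 1.64 h later. This call held with each of the 36 male libraries left out, with adjusted p up to 0.00011, and without any 1 replicate number, with adjusted p up to 0.00862, while the edgeR amplitude difference lay between -1.51 and -0.923. In females the edgeR adjusted p was 0.524 (unadjusted p = 0.0295), with a peak shift of -1.84 ± 0.635 h and 0.192% of genes called.

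The male and female changes of the Nr1d1 rhythm differed from each other (edgeR interaction, adjusted p = 0.00295), a difference called for 1.73% of genes. The adjusted p was 0.0733 without replicate number 1, 0.0763 without number 3 and at most 0.00565 with any 1 of the 72 libraries left out. Misaligned males also differed from misaligned females in the rhythm itself (edgeR adjusted p = 3.28e-05, 7.25% of genes called), whereas in controls the adjusted p of the sex difference was 1.00.

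Nr1d2 followed Nr1d1 at a smaller amplitude and with a later peak, and its rhythm also changed in males. At 00:00 it had 54.5, 50.8 and 24.2 CPM in misaligned males, against 26.9, 16.3 and 45.7 CPM in control males. At 04:00 the misaligned males had 30.3, 71.7 and 19.7 CPM, against 54.8, 95.03 and 54.5 CPM in control males. The ranges overlapped at both clock times, and the 71.7 CPM liver is the one with 97.5 CPM of Nr1d1. At 08:00 the values were 48.8, 52.8 and 48.2 CPM in misaligned males, against 54.7, 82.0 and 68.8 CPM in control males. At 12:00 they were 33.9, 84.7 and 78.9 CPM in misaligned males, against 58.3, 65.4 and 60.8 CPM in control males. Misaligned males were lower without overlap at 08:00, where 15.7% of tested genes had ranges apart, and stood on both sides of the controls at 12:00.

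At 16:00 Nr1d2 had 63.1, 80.5 and 79.7 CPM in misaligned males, against 21.4, 10.9 and 34.5 CPM in control males. At 20:00 it had 97.3, 19.5 and 40.1 CPM in misaligned males, against 10.7, 13.0 and 13.1 CPM in control males. Every misaligned male was over every control male at both clock times, where 13.3% and 33.2% of genes had ranges apart in either direction. By edgeR Nr1d2 rose in misaligned males by 1.74 ± 0.40 log2 at 16:00 (adjusted p = 0.0190) and by 2.09 ± 0.41 log2 at 20:00 (adjusted p = 0.00185). The 16:00 call was lost without any 1 replicate number and with males fitted alone (edgeR adjusted p = 0.141). The 20:00 call was lost without replicate number 1, where the difference was 1.19 log2 and the edgeR adjusted p 0.173.

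In females the mean of Nr1d2 was highest at 08:00 under both conditions, and the ranges of misaligned and control females were apart at 4 of the 6 clock times, higher at 00:00 and 04:00 and lower at 12:00 and 16:00 in misaligned females. At 00:00 it had 32.6, 39.2 and 31.4 CPM in misaligned females, against 19.6, 13.3 and 30.4 CPM in control females. At 04:00 it had 68.4, 77.8 and 75.6 CPM in misaligned females, against 55.0, 45.1 and 49.1 CPM in control females. Misaligned females were higher without overlap at both clock times, where 9.68% and 12.9% of genes had ranges apart. At 08:00 the values were 91.3, 78.7 and 51.9 CPM in misaligned females, against 70.6, 79.8 and 87.5 CPM in control females. At 12:00 they were 46.6, 43.9 and 40.3 CPM in misaligned females, against 68.7, 61.8 and 51.9 CPM in control females. The 08:00 ranges overlapped, and at 12:00 the misaligned females were lower without overlap, where 9.93% of genes had ranges apart.

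At 16:00 Nr1d2 had 14.2, 15.3 and 13.6 CPM in misaligned females, against 20.2, 24.01 and 16.1 CPM in control females. At 20:00 it had 15.3, 6.97 and 12.6 CPM in misaligned females, against 15.6, 14.2 and 8.16 CPM in control females. Misaligned females were lower without overlap at 16:00, where 9.6% of genes had ranges apart, and overlapped the controls at 20:00. In these livers Nr1d2 lay over the controls on the rising side of its curve and under them on the falling side, which is a description only. None of its 6 female contrasts passed edgeR's test (adjusted p 0.788 to 1.00, smallest unadjusted p 0.0827), and limma-voom called none either.

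**Figure D2:**
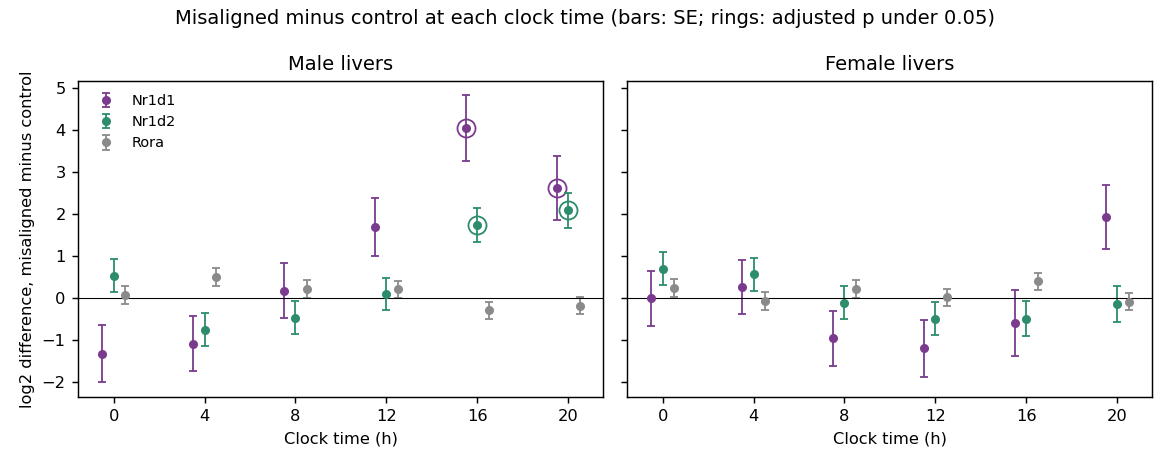
Log2 difference, misaligned minus control, of Nr1d1, Nr1d2 and Rora at each clock time in h in males and in females; points are edgeR estimates, bars their SE (3 livers a group) and rings an adjusted p under 0.05. In males Nr1d1 and Nr1d2 stand at 4.05 and 1.74 at 16:00 and at 2.63 and 2.09 at 20:00. These 4 differences passed the adjusted threshold by edgeR, and that of Nr1d1 at 20:00 did not by limma-voom.

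The amplitude of Nr1d2 was 0.48 ± 0.22 log2 with a peak at 14.0 ± 1.79 h in misaligned males, against 1.31 ± 0.17 peaking at 7.55 ± 0.503 h in control males. In females it was 1.46 ± 0.11 with a peak at 6.45 ± 0.297 h after misalignment, against 1.38 ± 0.11 with a peak at 8.22 ± 0.306 h in controls. The share of variance held by the cosine came to 23.3% in misaligned males, against 79.3% in control males, and 91.7% in misaligned females, against 91.2% in control females. The rhythm was called in control males (edgeR adjusted p = 6.16e-07), misaligned females (1.20e-08) and control females (1.84e-08), and had an adjusted p of 0.518 in misaligned males.

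The rhythm change of Nr1d2 was called in males (edgeR adjusted p = 3.13e-05), with an amplitude difference of -0.83 ± 0.28 log2 and a peak 6.48 ± 1.86 h later. The call held with any 1 of the 36 male libraries left out and, with edgeR adjusted p up to 0.0433, without any 1 replicate number. The size depended on the replicate number left out: the amplitude difference in the edgeR model was -0.365 log2 without number 2 and -1.27 log2 without number 3. The amplitude in misaligned males lay between 0.185 without number 3 and 0.731 without number 1. In females the edgeR adjusted p was 0.415 (unadjusted p = 0.0141), with an amplitude difference of 0.08 ± 0.16 log2 and a peak shift of -1.77 ± 0.426 h. The sex difference of the change was called (edgeR adjusted p = 0.00116) and was not called without replicate number 1 (adjusted p = 0.136). Misaligned males differed from misaligned females in the rhythm (edgeR adjusted p = 5.87e-07), and in controls the adjusted p was 1.00.

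**Figure D3:**
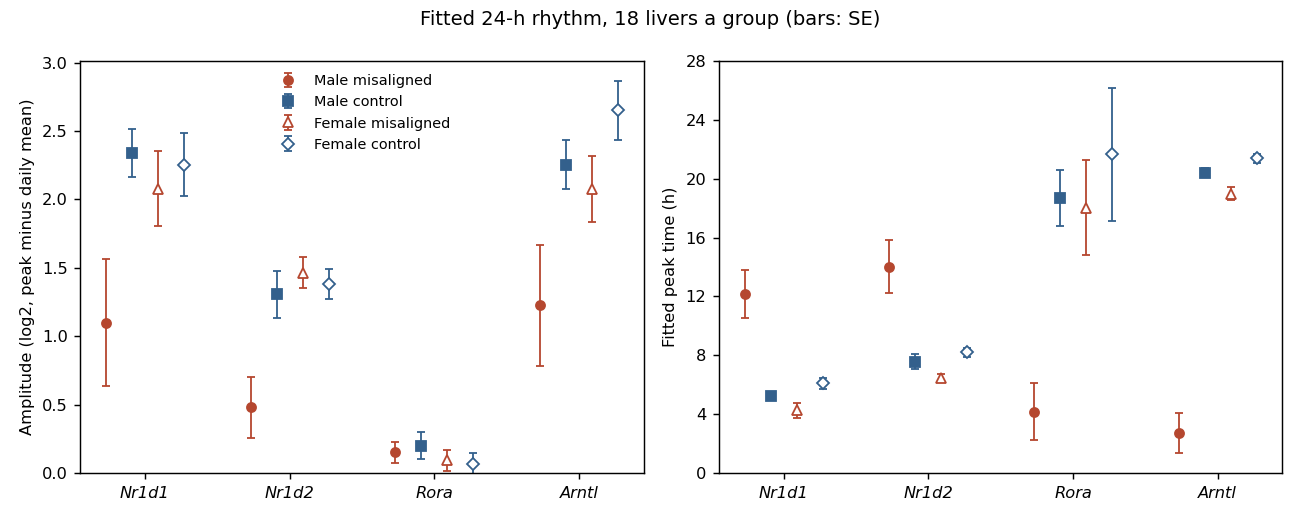
Fitted amplitude (log2, daily mean to peak) and peak time (clock time in h) of Nr1d1, Nr1d2, Rora and Arntl in the 4 kinds of mice, with SE bars from the 18 livers of each. Misaligned males have the lowest amplitudes of Nr1d1 (1.10) and Nr1d2 (0.48) and the latest peaks (12.2 h and 14.0 h).

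Nr1d2 peaked after Nr1d1 in every kind of mouse. The gap was 1.87 h in misaligned males (95% interval -0.745 to 4.48 h), against 2.31 h in control males (1.35 to 3.26 h), and 2.20 h in misaligned females (1.41 to 3.00 h), against 2.13 h in control females (1.37 to 2.90 h). The interval of misaligned males includes 0, and all 4 intervals overlap. The peak of Arntl minus that of Nr1d2 was -11.3 ± 0.901 h in misaligned males, against -11.2 ± 0.646 h in control males, and -11.5 ± 0.498 h in misaligned females, against -10.8 ± 0.448 h in control females. These 4 values also had overlapping 95% intervals, while the male peak of Nr1d2 itself lay 6.48 h later after misalignment.

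Averaged over the day, no member was called by edgeR for a difference between misaligned and control mice. Of all 15066 genes 0 were called in males and 1 in females. The lack of a call therefore says nothing particular about the members and does not show unchanged levels. Before adjustment 932 of all genes reached 0.05 in males, Nr1d1 and Nr1d2 among them but not Rora. In females 1007 genes did, with no member among them. In males the mean log2 difference was 1.03 ± 0.28 for Nr1d1 (edgeR adjusted p = 0.733, unadjusted p = 6.81e-04), 0.55 ± 0.16 for Nr1d2 (0.741, unadjusted p = 0.00131) and 0.09 ± 0.08 for Rora (0.885). In females the same differences were -0.09 ± 0.29 for Nr1d1, 0.01 ± 0.16 for Nr1d2 and 0.12 ± 0.09 for Rora. Between misaligned mice, Nr1d2 was higher in males than in females by 0.67 ± 0.16 log2 (edgeR adjusted p = 7.28e-04), with 19.9% of genes called in that direction. Between controls the male minus female difference of Nr1d2 was 0.14 ± 0.16. The sex difference in misaligned mice minus that in controls was 0.53 ± 0.23 and was not called (edgeR adjusted p = 0.837).

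Rora, the activator of the set, varied far less than the REV-ERB genes. Its lowest, median and highest values over 18 livers were 33.2, 45.3 and 73.6 CPM in misaligned males, against 31.0, 40.1 and 65.6 CPM in control males. In females they were 32.2, 39.1 and 55.5 CPM after misalignment, against 26.7, 35.97 and 49.4 CPM in controls. The 4 ranges overlapped widely. The highest value, 73.6 CPM, came from a misaligned male at 04:00, with 42.5 and 45.3 CPM in the others of its group, against 31.0, 48.8 and 33.8 CPM in control males. The ranges overlapped at all 6 clock times in males and at 5 in females. The exception was 08:00, with 45.7, 38.2 and 43.0 CPM in misaligned females, against 35.1, 36.8 and 37.2 CPM in control females, at 7.56% of genes with ranges apart.

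No rhythm of Rora was called by edgeR or limma-voom in any kind of mouse, with edgeR adjusted p of 0.763 in misaligned males, 0.207 in control males, 0.772 in misaligned females and 0.784 in control females. Its amplitude was 0.15 ± 0.08 log2 in misaligned males, against 0.20 ± 0.10 in control males, and 0.09 ± 0.08 in misaligned females, against 0.07 ± 0.08 in control females. The unadjusted edgeR p in control males was 0.0488. The rhythm change with misalignment had an adjusted p of 0.113 in males (unadjusted p = 0.0176) and 0.990 in females, and the sex difference of that change 0.407. Rora was higher in control males than in control females by 0.22 ± 0.09 log2 (edgeR adjusted p = 0.0357), with 17% of genes called in that direction. That call was lost with no filter on low counts (adjusted p = 0.0750), by limma-voom (adjusted p = 0.0502) and without replicate number 2 or 3. Between misaligned mice the male minus female difference was 0.19 ± 0.08 (edgeR adjusted p = 0.0641). Rorb, the family member of brain and retina, had 0 or 1 count in every library.

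Ordered by mean, the 24 groups of Nr1d1 ran from 126 ± 16.9 CPM (SD, n = 3) in misaligned females at 04:00 down to 4.44 ± 1.81 CPM in control males at 16:00. In that order 2 of the 23 neighbouring pairs had ranges that did not overlap. Nr1d2 ran from 79.3 ± 8.44 CPM in control females at 08:00 to 11.6 ± 4.25 CPM in misaligned females at 20:00, with 1 such pair. Rora ran from 53.8 ± 17.2 CPM in misaligned males at 04:00 to 33.5 ± 8.12 CPM in control females at 16:00, a ratio of 1.61, with 0 such pairs. Levels compared between genes are per kb of the longest transcript. The median level over all livers was 11.5 CPM per kb for Nr1d1, 9.90 for Nr1d2 and 3.68 for Rora. Reads lay unevenly along these transcripts, so the per-kb levels are a rough comparison between genes. In the exons between the first and the last, the counts per base were 24.2 for Nr1d1, 4.06 for Nr1d2 and 0.620 for Rora.

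Single livers of misaligned males differed within a clock time. At 04:00, 12:00 and 20:00 the liver highest in Nr1d1 was also the highest in Nr1d2, and at 00:00, 08:00 and 16:00 it was not. At 04:00 the liver with 97.5 CPM of Nr1d1 had 71.7 CPM of Nr1d2 and 2.36 CPM of Arntl. The other livers of that group, with 3.75 and 11.1 CPM of Nr1d1, had 23.5 and 28.7 CPM of Arntl. At 20:00 the liver with 62.9 CPM of Nr1d1 had 97.3 CPM of Nr1d2 and 1.08 CPM of Arntl. Its neighbours, with 5.29 and 14.7 CPM of Nr1d1, had 23.7 and 15.3 CPM of Arntl. In both groups the livers high in the REV-ERB genes were low in Arntl. The SD of log2 CPM within a clock time was 1.42 for Nr1d1 in misaligned males, against 0.44 in control males. The mean absolute deviation from the median liver came to 0.71 in misaligned males, against 0.26 in control males (2-sided permutation test, p = 0.0817, 0.490 after adjustment over 6 tests), so this difference in spread did not pass; without replicate number 3 its adjusted p was 0.0477.

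**Figure D4:**
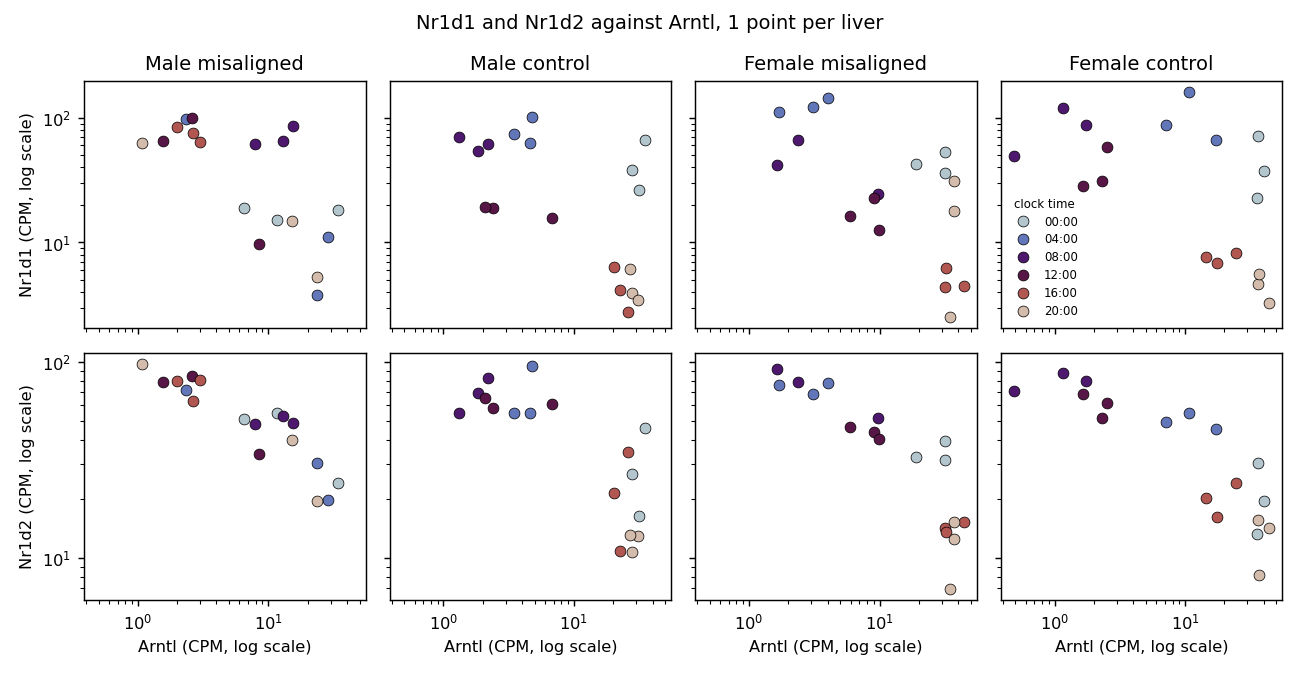
CPM of Nr1d1 (top) and Nr1d2 (bottom) against CPM of Arntl, both on log axes, in 18 single livers of each of misaligned males, control males, misaligned females and control females, coloured by clock time. Livers high in Arntl were low in Nr1d2 in all 4 kinds (Pearson r from -0.91 to -0.80), and in misaligned males livers of one clock time lie at both ends.

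Across the 18 livers of a kind, Nr1d1 and Nr1d2 varied together, with Pearson r of 0.81 in misaligned males (permutation p = 7e-05), 0.76 in control males, 0.81 in misaligned females and 0.80 in control females. Spearman's rho was 0.75, 0.64, 0.71 and 0.77 in the same order, and r lay between 0.71 and 0.80 without the 2 livers farthest from the median of Nr1d1. Nr1d2 and Arntl had r of -0.91 in misaligned males (permutation p = 1e-05, the smallest the permutations can give), -0.80 in control males, -0.88 in misaligned females and -0.86 in control females. Their rho was -0.89, -0.72, -0.93 and -0.90, and r without the 2 farthest livers was -0.91, -0.80, -0.91 and -0.87. These livers share a common daily curve. After the mean of each clock time was subtracted, Nr1d2 and Arntl had r of -0.92 in misaligned males (permutation p = 0.00309, adjusted p = 0.0742), 0.21 in control males, -0.43 in misaligned females and 0.09 in control females. After the same step Nr1d1 and Nr1d2 had r of 0.81 in misaligned males (adjusted permutation p = 0.0935) and 0.34 in control males. In females their r was 0.79 after misalignment and 0.48 in controls. Over all 24 relations computed, the 8 named here had adjusted p of at most 0.00141 before that step, and after it the smallest adjusted p of the 24 was 0.0742. Rora had no relation to Nr1d1, Nr1d2 or Arntl with an adjusted permutation p under 0.05, the smallest being 0.0673 with Arntl in control males (r = 0.50).

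Intronic reads, which come mostly from unspliced transcripts, were summed per gene and tested in the same cosine model. A library held 3 to 234 such counts of Nr1d1 (median 56), 1 to 45 of Nr1d2 (median 12.5) and 24 to 88 of Rora (median 49.5). The intronic rhythm of Nr1d1 changed with misalignment in males (edgeR adjusted p = 0.00133, 2.18% of genes called) and differed in that change between the sexes (edgeR adjusted p = 0.0263, 0.644% called). Its intronic peak was at 11.5 ± 1.496 h in misaligned males, against 5.21 ± 0.436 h in control males, and at 3.67 ± 0.420 h in misaligned females, against 5.65 ± 0.386 h in control females. The intronic rhythm of Nr1d2 also changed in males (edgeR adjusted p = 0.0169), with a peak at 12.9 ± 1.18 h in misaligned males, against 8.03 ± 0.876 h in control males. The sex difference of its change had an adjusted p of 0.153 at this depth. Each intronic peak of the REV-ERB genes lay within 1.09 h of the peak of the gene counts.

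Rora differed between the readouts. Its intronic counts had a called rhythm in control males (adjusted p = 0.0228 by edgeR, with 3% of genes called), with an amplitude of 0.49 ± 0.15 log2 and a peak at 11.1 ± 1.16 h, against 0.20 ± 0.10 log2 for its gene counts. In misaligned males the intronic adjusted p was 0.720, and the change between conditions had an adjusted p of 0.136. Of the intronic reads of Rora, 2939 came from the first intron of 542102 bases and 586 from the second of 152027 bases.

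The exon counts show from which stretches of each gene the values came. The terminal exon held 10.7% of the counts of internal and terminal exons of the longest transcript for Nr1d1, 84.6% for Nr1d2 and 97.8% for Rora. Per base, the terminal exon had 0.246 times the counts of the internal exons for Nr1d1, 2.67 times for Nr1d2 and 5.64 times for Rora, with file intervals 300 bases wider than the annotated ends. The first exon of Rora had 9 counts over all 72 libraries and that of Nr1d2 37, against 7262 for Nr1d1. Reads across splice junctions summed to 13812 for Nr1d1, 2480 for Nr1d2 and 387 for Rora. The gene counts of Rora were therefore almost entirely counts of its terminal exon, whose coordinates are chromosome 9 from 69378797 to 69388546 in the files.

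**Figure D5:**
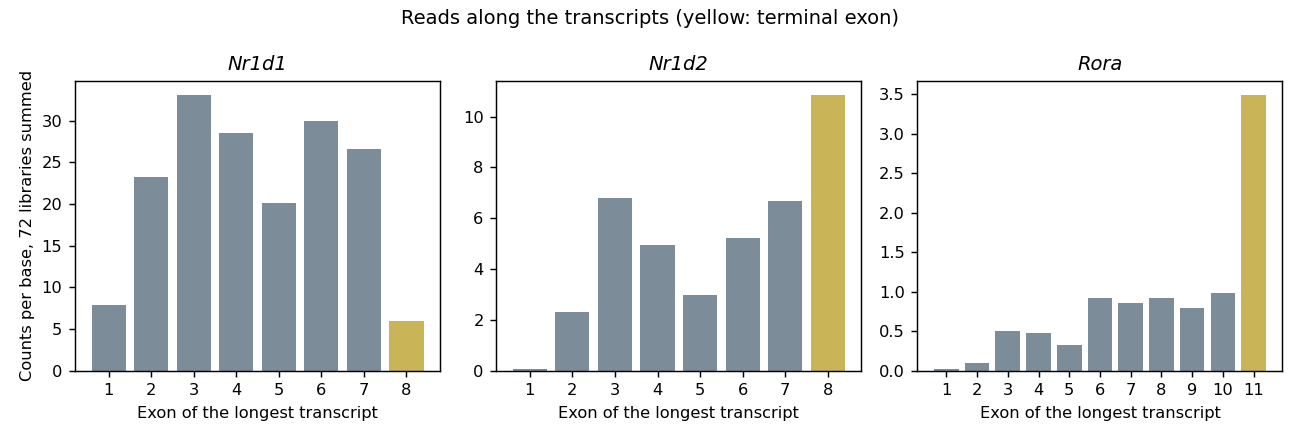
Counts per base summed over all 72 libraries for each exon of the longest transcript of Nr1d1, Nr1d2 and Rora, numbered from the 5′ end, with the terminal exon in yellow. The profile of Nr1d1 is highest in exon 3, and those of Nr1d2 and Rora are highest in the terminal exon, at 10.9 and 3.50 counts per base.

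Single exons were tested across 184077 exon rows, a step chosen after the gene results were seen. The rhythm change in males was called for 11 of the 11 exon rows of Nr1d1 (edgeR adjusted p up to 2.85e-04) and for 8 of the 11 tested rows of Nr1d2, out of 14, against 3.71% of all rows. For Rora it was called for 0 of the 3 tested rows, out of 21 (adjusted p 0.310 to 0.679). In females the adjusted p of these rows was at least 0.420, with 0.0223% of all rows called. Overlapping rows share reads, so they are not separate measurements. The internal exons of Nr1d1 peaked at 12.1 ± 1.58 h in misaligned males, against 5.33 ± 0.255 h in control males, and its terminal exon at 12.3 ± 1.42 h, against 5.79 ± 0.368 h. The ratio of terminal to internal counts showed no rhythm past the threshold in 12 permutation tests, with the smallest adjusted p, 0.0505, for Nr1d1 in control females.

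Targets of the ROR element that these receptors share were listed with earlier results of these data known, so the counts are descriptive. Of 22 targets tested, the rhythm change was called for 10 in males, 2 in females and 8 in the sex difference, against 9.23%, 0.192% and 1.73% of all genes. In females 7 of the 22 reached 0.05 before adjustment, against 1237 of all 15066 genes. The circadian activators led the list. Clock, the partner gene of Arntl, had an amplitude of 0.36 ± 0.10 log2 and a peak at 2.84 ± 1.059 h in misaligned males, against 0.66 ± 0.07 and 20.2 ± 0.429 h in control males (edgeR adjusted p of the change = 5.45e-06). Npas2, which can stand in for Clock, had an amplitude of 1.24 ± 0.56 in misaligned males, against 3.29 ± 0.23 in control males. The repressor gene Cry1 peaked 6.68 ± 1.52 h later and Nfil3, a repressor of D-boxes, 6.28 ± 1.18 h later in misaligned males than in control males. Arntl itself peaked 6.31 ± 1.41 h later in misaligned males and had a shift of -2.43 ± 0.539 h in misaligned females (edgeR adjusted p of the change 0.157). The mean log2 difference between misaligned and control males over the day was called by edgeR for 0 of the 22 targets and 0 of all 15066 genes. Its median was 0.06 for the targets, against 0.01 over all genes. Before adjustment 0 of the 22 reached 0.05, against 932 of all genes. The calls by limma-voom and DESeq2 were 0 and 0 of the 22, against 0 and 3 of all genes.

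Regulators at E-boxes and D-boxes act on the promoters of clock genes, those of the members included. Of 15 tested, which share Arntl, Clock, Npas2, Cry1 and Nfil3 with the targets, 11 were called for the rhythm change in males, 2 in females and 11 for the sex difference, against 9.23%, 0.192% and 1.73% of all genes. Ciart, a repressor of BMAL1, had an edgeR adjusted p of 2.04e-06 for the change in males, with a fitted amplitude of 1.01 log2 in misaligned males, against 2.15 in control males. Dbp, the D-box activator, had a fitted amplitude of 1.00 log2 in misaligned males, against 3.27 in control males (edgeR adjusted p = 5.62e-06).

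The partners of the receptors are read against the 9.23% of all genes called for the rhythm change in males. Of 6 co-repressor genes, 2 were called in males: Gps2, a subunit of the NCoR complex (edgeR adjusted p = 0.00221), and Hdac3, its deacetylase (0.00634). Their amplitudes were small, at 0.17 log2 in misaligned males, against 0.21 in control males, for Gps2, and 0.11, against 0.19, for Hdac3. The test takes amplitude and peak together. Fitted peaks were at 20.6 h in misaligned males, against 6.83 h in control males, for Gps2, and 16.4 h, against 10.1 h, for Hdac3. The scaffold genes Ncor1 (0.165) and Tbl1x (0.0577) missed the threshold. Of 8 co-activator genes, 0 were called by edgeR in males, 1 reached 0.05 before adjustment, and 0 were called by limma-voom or DESeq2. Of 7 turnover factors and kinases of REV-ERB alpha, 1 was called, Fbxw7, a ubiquitin ligase subunit (edgeR adjusted p = 0.0363). The counts of these lists are small, and nothing particular to them is read from their calls. In females 0 genes of these 3 lists were called by edgeR, 2 reached 0.05 before adjustment, and 0 were called by limma-voom or DESeq2.

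Heme is the ligand of the REV-ERBs, and 11 genes of heme synthesis and breakdown were tested. By edgeR 2 were called in males and 1 for the sex difference, against 9.23% and 1.73% of all genes. Before adjustment 6 of the 11 reached 0.05 in males by edgeR, against 3634 of all 15066 genes. In males DESeq2 called 5 of the 11, against 1568 of all genes, and limma-voom 2, against 1274. For the sex difference limma-voom called 0 of the 11, against 230 of all genes. Whether the list differed from all genes was not tested. Alas1, the first and rate-limiting enzyme of the pathway, had a fitted amplitude of 0.34 log2 with a peak at 18.4 h in misaligned males, against 0.95 and 9.45 h in control males (edgeR adjusted p = 0.00614), and its sex difference had an adjusted p of 0.0338. Ppox, a later enzyme, was the other gene called by edgeR in males (adjusted p = 0.0190). Its amplitudes were 0.15 log2 in misaligned males, against 0.18 in control males. Its fitted peak was at 13.0 h in misaligned males, against 4.48 h in control males. Among related receptors, Rxra, the partner of many nuclear receptors, was called in males (edgeR adjusted p = 0.0219). Thra, whose end overlaps that of Nr1d1, had an adjusted p of 0.433, and Thrb 0.630.

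By the likeness of the 24 group means of log2 CPM, Nr1d1 was closest to Klhdc7a (Pearson r = 0.91), Tns2 (0.91), Casp6 (0.88), Phka2 (0.86) and Gabarapl1 (0.85). Nr1d2 was closest to Dbp (0.92), then Wdr45 (0.91), Rdh9 (0.90), Bfar (0.88) and Fibp (0.87), and had an r of 0.80 with Nr1d1. The closest genes to Rora reached a lower r, with Prkci at 0.82 and Clcn3, Cpeb2, Tmem30a and Golph3 at 0.80. These r are descriptions over group means, given without a test, and points of the same clock time share a daily curve.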

How the data were processed

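Whole-liver poly(A) RNA was sequenced in 72 strand-specific libraries. The authors deposited read counts in whole numbers per gene, exon, intron and splice junction, sense and antisense, in versions named MIN and MAX, whose meaning is not given in the sources used here. STAR 2.6.0c and GRCm38 are named in the submitters' processing notes. The gene results use the sense MIN counts, at 11551524 to 12529963 per library.

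From the deposited counts, edgeR 4.0.16 in R 4.3.3 tested the 15066 genes that passed filterByExpr over the 24 groups. Library sizes were scaled by TMM (factors 0.836 to 1.17). A robust quasi-likelihood model held a mean, cosine and sine of 24 h for each sex and treatment (60 residual degrees of freedom), and a second model 1 mean per group (48). All 72 libraries entered each fit. Tests were 2-sided, with Benjamini-Hochberg adjustment over all genes of a comparison and a threshold of 0.05. Amplitudes, peaks and SE of the members, Arntl, Npas2, Clock, Cry1 and Nfil3 came from least squares on log2 CPM within each sex and treatment. The prior count was 2. Amplitudes and peaks of Ciart, Dbp, Gps2, Hdac3, Alas1 and Ppox came from the edgeR cosine model. So did the amplitude differences refitted with libraries or replicate numbers left out. Spread and correlations were tested with 100000 permutations. The fit was first checked on simulated counts with known changes.

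Members and gene lists were chosen with earlier results of these data known. Of a list, the text names at most the 4 genes with the smallest p for the rhythm change in males, and Arntl, Npas2, Clock, Cry1, Nfil3, Rorb, Thra and Thrb. A further gene of that rule is not reported here. Alternatives were other scalings and filters, MAX counts, limma-voom 3.58.1, DESeq2 1.42.0, a test across clock times, a replicate block, fits within a sex and the leaving out of replicate numbers and libraries. Exon tests and the overlap of ranges were added after the data were seen. All replicate pairs differed by more than sampling noise (chi-square per gene 10.5 to 86.8), so none was merged. Same-numbered samples of different groups did not vary together (mean r -0.0039 over 828 pairs).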

Additional observations from a re-analysis of the deposited data

Results flagged for a closer look

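The rhythm change of Nr1d1 with misalignment differed between males and females (edgeR interaction, adjusted p = 0.00295). The amplitude difference between misaligned and control mice was -1.24 ± 0.50 log2 in males and -0.18 ± 0.36 log2 in females, and the peak shift was 6.92 ± 1.64 h in males and -1.84 ± 0.635 h in females. The adjusted p stayed between 1.85e-04 and 0.00565 when any 1 of the 72 libraries was left out, and between 0.0446 and 0.0763 when 1 replicate number was.

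The rhythm change of Nr1d2 differed between the sexes in the same test (adjusted p = 0.00116). The amplitude difference was -0.83 ± 0.28 log2 in males and 0.08 ± 0.16 log2 in females, and the peak shift was 6.48 ± 1.86 h in males and -1.77 ± 0.426 h in females. With 1 library left out the adjusted p lay between 1.68e-04 and 0.00257, and with 1 replicate number left out between 0.00436 and 0.136. Rora was not among these results (adjusted p = 0.407).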

How the results depend on the processing

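At least 86 counts stood behind Nr1d2 in each library and 28 behind Nr1d1, so the low clock times of Nr1d1 carry the largest counting error, and 3 livers a group limit every contrast at 1 clock time. Replicate numbers do not pair the livers, as same-numbered livers did not vary together. With a replicate block 1375 genes were called for the rhythm change in males, against 1391 without it, and the adjusted p of the change was 4.22e-05 for Nr1d1 and 4.19e-05 for Nr1d2. The block changed 1 of 80 results, turning the 00:00 difference of Nr1d1 in females to -0.0129.

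The calls of Nr1d1 and Nr1d2 on the rhythm, its change and the sex difference of that change held under each scaling and filter and by limma-voom. DESeq2 was run on the change within a sex and on the daily mean, not on the rhythm or the sex difference. The calls of the change in males held there. Differences near 0 turned sign in some cases: the same 00:00 difference was -0.00694 with RLE size factors, Rora at 12:00 in females was -0.00634 with total counts, Nr1d2 at 12:00 in males was -0.0118 by limma-voom, and the correlation of Nr1d2 with Rora in control females was -0.0107 with total counts. With 1 mean per clock time, the change in size (0.5 of the range of group means) was 0.0114 for Rora in males and 0.0956 for Nr1d1 in females. With males fitted alone, 1 of the 4 male calls at single clock times held. The cause was not tested.

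Leaving out 1 replicate number left 0 to 2 member calls at single clock times in males. Amplitude changes were also refitted without each single library. The sex difference of the amplitude change (male minus female, log2) ranged from -1.5 to -0.426 for Nr1d1, -1.45 to -0.362 for Nr1d2 and -0.225 to 0.0406 for Rora. For Nr1d1 and Nr1d2 it was smallest without replicate number 2 and largest without number 3. Its call was lost without replicate number 1 for both REV-ERB genes and without number 3 for Nr1d1. The amplitude change ranged in males from -1.51 to -0.923 for Nr1d1 and -1.27 to -0.365 for Nr1d2, and from -0.18 to 0.0631 for Rora in males, -0.00365 to 0.18 for Nr1d2 in females and -0.0249 to 0.0578 for Rora in females. The male minus female amplitude in controls ranged from -0.0913 to 0.201 for Nr1d1 and -0.346 to 0.169 for Nr1d2, and in misaligned mice from -0.0976 to 0.17 for Rora. The daily mean difference ranged from -0.0507 to 0.195 for Rora in males and -0.0158 to 0.0526 for Nr1d2 in females. In males, single clock times ranged from -0.0927 to 0.39 (Rora, 00:00), -0.0789 to 0.38 (Nr1d2, 12:00) and -0.41 to 0.193 (Rora, 20:00). In females they ranged from -0.463 to 0.663 (Nr1d1, 00:00), -0.085 to 0.743 (Nr1d1, 04:00), -0.115 to 0.00697 (Rora, 04:00), -0.363 to 0.166 (Nr1d2, 08:00), -0.00894 to 0.0797 (Rora, 12:00), -0.439 to 0.228 (Nr1d2, 20:00) and -0.317 to 0.158 (Rora, 20:00). The male minus female daily mean ranged from -0.00462 to 0.253 for Nr1d2 in controls, and its change for Rora from -0.157 to 0.084. The misaligned minus control spread within a clock time ranged in males from 0.155 to 0.872 for Nr1d1, -0.00842 to 0.208 for Nr1d2 and -0.118 to -0.0116 for Rora (adjusted permutation p = 0.0381 without replicate number 1), and in females from -0.0637 to 0.235, -0.0992 to 0.0354 and -0.0178 to 0.00556 in the same gene order. The gap from the Nr1d1 peak to the Nr1d2 peak in misaligned females ranged from 1.81 to 3.01 h.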
